A study of Mus musculus with 8 samples.

Results

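This account covers 6 features that collect rRNA or other structural RNA reads, CT010467.1, Gm26917, Lars2, Rmrp, Rpph1 and Rn7sk, in the lumbar spinal cord RNA-seq of 8 male SOD1G93A mice. The features were chosen by their read counts in these same libraries, so their levels and their genotype difference are given as a description, with no test. Of the 6 features, 5 have a row among the 55291 rows of the raw count table, and Gm26917 is not analysed here. Of the 5, CT010467.1, Lars2 and Rn7sk passed the filter on low counts with which 19470 genes were tested, while Rmrp and Rpph1 did not.

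The Ager-deleted group held 4 SOD1G93A Ager fl/fl Cx3cr1 Cre/+ mice (E1776, E5231, E5248 and E5568), and the Cre-expressing controls were 4 SOD1G93A Ager +/+ Cx3cr1 Cre/+ mice (E5386, E5642, E6578 and E6732), all on a C57BL/6J background. Every mouse carried the mutant human SOD1 transgene, which gives a motor neuron disease, and a tamoxifen-inducible Cre in 1 copy of the Cx3cr1 gene, which is active in microglia and related macrophages, and every mouse was given tamoxifen, at 12 weeks by the labels and slightly later by the paper's text. The labels give an age of 120 days, while the paper's text places the tissue at the end-stage of disease. The libraries were made from whole lumbar cord RNA after poly(A) selection, with strand marked, so that differences in cell number and in RNA per cell cannot be told apart.

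Most RNA in a cell is ribosomal. RNA polymerase I transcribes the long precursor of the 18S, 5.8S and 28S rRNAs, whereas RNA polymerase III transcribes 5S rRNA and many short RNAs that end in a run of U and carry no poly(A) tail. Rn7sk is the 7SK RNA, which holds the elongation kinase P-TEFb inactive; Rmrp is the RNA of RNase MRP, which cuts the rRNA precursor; and Rpph1 is the RNA of RNase P, which trims the 5′ end of tRNAs. Lars2 is a protein-coding gene, the mitochondrial leucyl-tRNA synthetase. Selection for poly(A) removes most structural RNA, so the share of counts left on such rows describes the composition of a library as well as the RNA of the tissue.

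In the GENCODE M21 annotation of GRCm38 (mm10), CT010467.1 is an rRNA gene on the reverse strand of chromosome 17, from 39846353 to 39848827. It overlaps Gm42418 on the forward strand and AY036118 on the reverse strand, neither of which is analysed here. Gm26917 is a lincRNA just beside it, on the forward strand from 39843013 to 39846341. The first 90 bases of the CT010467.1 transcript are shown because they place the row within the ribosomal unit. As background, they read as the reverse complement of the 3′ end of 18S rRNA, so the row lies on the strand opposite to 18S. The strand setting of the counting is not given in the sources used here.
CT010467.1: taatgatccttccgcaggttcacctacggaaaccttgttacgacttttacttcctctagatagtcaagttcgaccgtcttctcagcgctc

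Lars2 spans chromosome 9 from 123366927 to 123462666 on the forward strand. Its 3′ UTR, bases 2906 to 3894 of the longest coding transcript, holds a stretch of 72 bases at chr9:123462048-123462119 that aligns to bases 179 to 250 of a Gm15564 transcript with 98.61% identity and 1 mismatch. Gm15564 is an annotated antisense gene on chromosome 16 whose counts followed those of CT010467.1, as described below. A run of 30 bases that is identical in both transcripts is shown, because reads from it cannot be assigned to either gene by sequence.
Lars2 and Gm15564: tgttcacccactaatagggaacgtgagctg

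Rn7sk lies on the reverse strand of chromosome 9 from 78175303 to 78175633 and overlaps no other gene. Rmrp lies on the reverse strand of chromosome 4 from 43492783 to 43493063, opposite to Ccdc107. Rpph1, on the reverse strand of chromosome 14 from 50807449 to 50807767, lies within Ccnb1ip1 on the same strand. The last 60 bases of Rn7sk and of the Y RNA Rny1, a short polymerase III transcript described with it below, are shown with the terminal run of T in capitals. Both end in T and not in A, and the longest run of A within the annotated transcript was 3 bases in Rn7sk and 2 in Rny1. The annotated ends of Rmrp and Rpph1, which are not shown, had a terminal run of T of 0 bases.
Rn7sk: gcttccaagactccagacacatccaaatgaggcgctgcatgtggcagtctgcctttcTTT
Rny1: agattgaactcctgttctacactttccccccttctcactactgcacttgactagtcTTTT

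Each library held 31148047 to 40324897 counts on genes, so that 3 counts, the floor used for detection, were worth 0.0744 to 0.0963 CPM (counts on a gene per 1000000 counts on genes). Intervals are exact 95% binomial intervals, and these and the floor cover counting error only. Ager, the targeted gene, which encodes the receptor RAGE, was at 0.884 CPM in E1776, 1.53 in E5231, 1.04 in E5248 and 1.35 in E5568. Among the controls it was at 1.53 CPM in E5386, 2.12 in E5642, 2.15 in E6578 and 2.46 in E6732. E5231 was marginally above E5386, so the genotypes overlapped slightly. Across the 28 pairs of mice chi-square over genes was at least 15.7 per degree of freedom, so no pair of libraries agreed within sampling noise. The labels give no sequencing or extraction batch.

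Among Ager-deleted mice, the 5 features together took 0.0576% of all counts in E1776, 0.112% in E5231, 0.0527% in E5248 and 1.75% in E5568. Among the controls, they took 0.203% in E5386, 4.13% in E5642, 0.121% in E6578 and 0.111% in E6732. A single mouse of each genotype, E5568 and E5642, therefore stood far above the rest, E5386 came next, and the genotypes overlapped. Mean shares were 0.492% ± 0.836 (SD, n = 4) in Ager-deleted mice and 1.14% ± 1.99 (SD, n = 4) in controls, and the SD exceeded the mean in both. The medians were 0.0848% and 0.162%. Without E5568 and E5642, which were singled out after their values were seen, the means were 0.0741% ± 0.0329 (SD, n = 3) and 0.145% ± 0.0501 (SD, n = 3).

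CT010467.1 carried most of this share, between 89.2% and 92.0% of the 5 features' counts in every mouse. With Ager deleted, it took 0.0516% of all counts in E1776, 0.103% in E5231, 0.0470% in E5248 and 1.60% in E5568. Among the controls, it took 0.184% in E5386, 3.79% in E5642, 0.109% in E6578 and 0.102% in E6732. The 95% interval in E5642 was 3.79% to 3.80% and in E5568 1.60% to 1.61%, so the spread between mice was far wider than the counting error. CT010467.1 was the row with the most counts in E5568 and in E5642, where it ranked above every mRNA of the cord. In the other 6 mice it ranked between 28, in E5386, and 209, in E5248. The highest mouse was 80.6-fold above the lowest. By mean share over the 8 mice it ranked 5 among all rows, at 0.749%, behind mt-Co1 and mt-Cytb, which encode respiratory chain subunits, Mbp, which encodes a myelin protein, and Gfap, the astrocyte filament protein. CT010467.1 ran from 0.0470% to 3.79%, whereas mt-Co1 ran from 0.853% to 1.47% and Mbp from 1.10% to 1.39%.

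**Figure D1:**
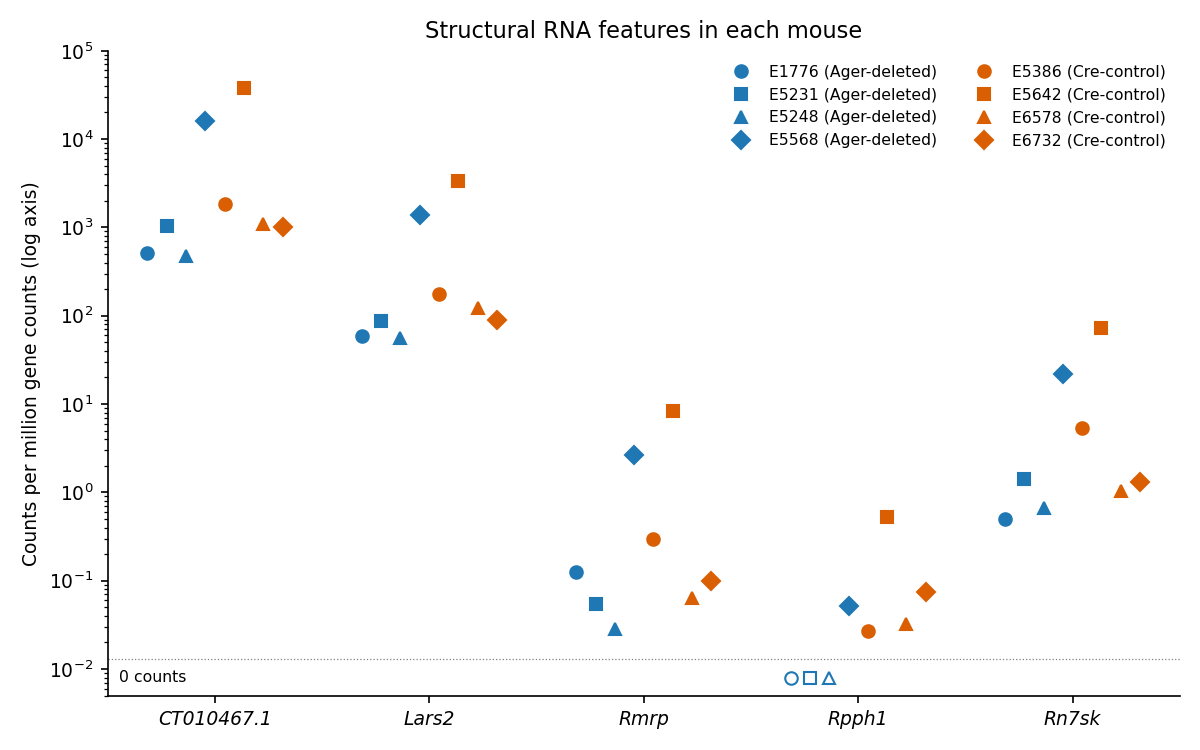
CPM (log axis) of the 5 features with a row, 1 point per mouse, blue for Ager-deleted mice and orange for Cre-expressing controls, with open points for 0 counts. E5642 is the highest mouse for each feature, and E5568 is the second highest for each feature other than Rpph1.

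Among Ager-deleted mice, Lars2 was at 59.3 CPM in E1776, 87.8 in E5231, 56.4 in E5248 and 1396 in E5568, and among the controls at 179 CPM in E5386, 3322 in E5642, 123 in E6578 and 89.2 in E6732. The high mice were those of CT010467.1, and the genotypes overlapped. For each 100 counts on CT010467.1 there were between 8.52 and 12.0 counts on Lars2, a narrow ratio beside the 80.6-fold range of CT010467.1 itself. A straight line through the 8 mice had a slope of 8.72 Lars2 counts per 100 counts of CT010467.1 and an intercept of 11.0 CPM, and through the 6 mice without E5568 and E5642 a slope of 8.95 and an intercept of 9.98 CPM. Lars2 counts therefore came to a nearly fixed part of the CT010467.1 counts, and what was left after subtracting that slope ran from -2.03 CPM in E5231 to 28.0 CPM in E6578. The line is a description over 8 points whose upper end is set by E5642 and E5568.

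Other synthetases did not share this range. Lars, which encodes the cytosolic leucyl-tRNA synthetase, was between 53.8 and 60.5 CPM in the 8 mice, and its ratio of E5642 to E5568 was 0.997 (95% interval 0.939 to 1.06) where that of Lars2 was 2.38 (95% interval 2.36 to 2.41). The 21 other listed mitochondrial synthetase genes, which charge tRNAs inside mitochondria, summed to between 576 and 649 CPM. None of the 21 passed edgeR's exact test or its quasi-likelihood test, with 0 also at an unadjusted p under 0.05, and their median log2 fold change was -0.05, beside -0.01 over all genes tested.

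Among Ager-deleted mice, Rn7sk was at 0.505 CPM in E1776, 1.42 in E5231, 0.662 in E5248 and 21.6 in E5568. Among the controls, it was at 5.36 CPM in E5386, 72.1 in E5642, 1.03 in E6578 and 1.31 in E6732. The order at the top was again E5642, E5568 and E5386, and the genotypes overlapped. The highest mouse was 143-fold above the lowest, a wider range than that of CT010467.1. For each 1000 counts on CT010467.1 there were between 0.945 and 1.41 counts on Rn7sk in 6 mice, 1.90 in E5642 and 2.91 in E5386, so Rn7sk was high relative to CT010467.1 in those 2 controls.

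With Ager deleted, Rmrp had 5 counts in E1776, 2 in E5231, 1 in E5248 and 103 in E5568, and among the controls 11 counts in E5386, 284 in E5642, 2 in E6578 and 4 in E6732. These counts came to 8.36 CPM (95% interval 7.42 to 9.39) in E5642, 2.67 CPM (95% interval 2.18 to 3.23) in E5568 and 0.301 CPM (95% interval 0.150 to 0.538) in E5386, with all other mice at or below 0.126 CPM. Outside E5642, E5568 and E5386, then, Rmrp was close to the floor of 3 counts. Ccdc107, the coding gene on the opposite strand, was from 12.9 to 16.4 CPM in the 8 mice and did not show these peaks.

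Rpph1 was the scarcest of the 5. With Ager deleted, it had 0 counts in E1776, 0 in E5231, 0 in E5248 and 2 in E5568. In the first 3 mice the 95% interval for 0 counts reached up to 0.0932, 0.101 and 0.106 CPM. Among the controls there was 1 count in E5386, 18 in E5642, 1 in E6578 and 3 in E6732. E5642 was the only mouse clearly above the floor, at 0.530 CPM (95% interval 0.314 to 0.838). Ccnb1ip1, the gene around Rpph1, had 0 to 2 counts in each mouse.

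Per kilobase of annotated exon, the median level over the 8 mice was 429 CPM for CT010467.1, 9.55 CPM for Lars2, 4.14 CPM for Rn7sk, 0.401 CPM for Rmrp and 0.0932 CPM for Rpph1. In E5642 the levels per kilobase were 15381, 300, 218, 29.8 and 1.66 CPM in the same order of features. The order of the 5 was thus the same in the median mouse and in E5642, although Lars2 and Rn7sk lay closer together in E5642.

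**Figure D2:**
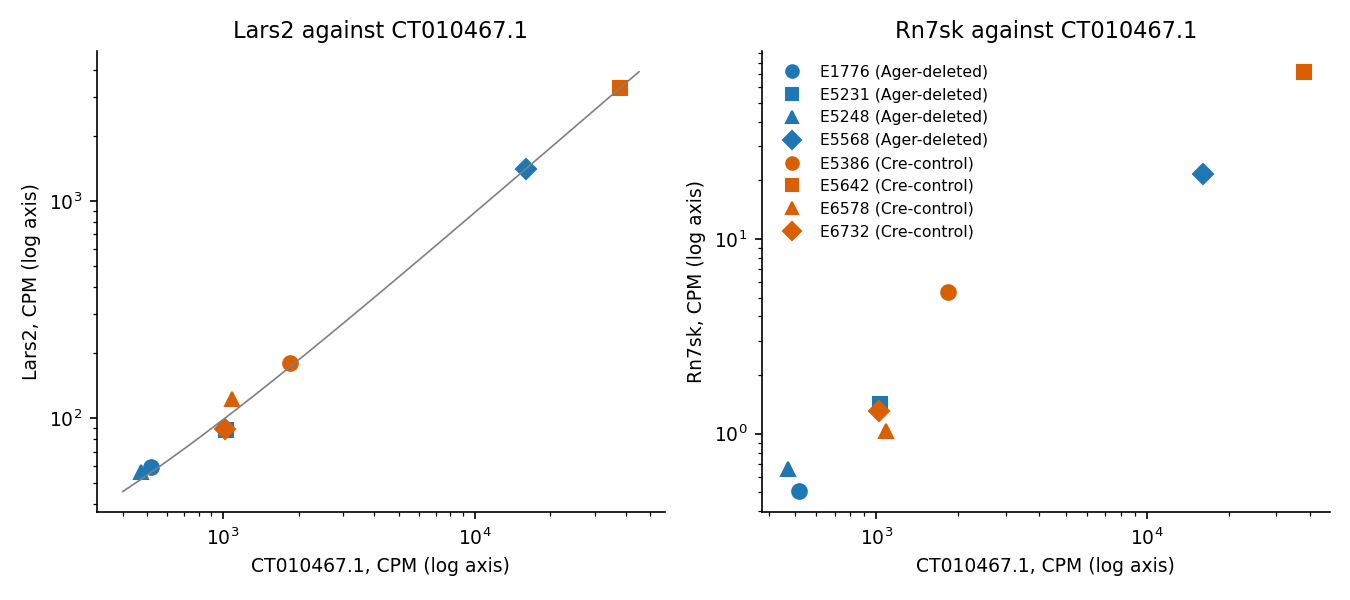
Lars2 (left) and Rn7sk (right) against CT010467.1 in CPM, both axes log, 1 point per mouse, with the line of slope 8.72 per 100 and intercept 11.0 CPM on the left. Lars2 stays near the line over the whole range, while Rn7sk per 1000 counts of CT010467.1 is highest in E5386, at 2.91.

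The levels moved together across mice. On the log2(CPM + 1) scale Pearson's r over the 8 mice was 0.997 between CT010467.1 and Lars2 (Spearman's rho 0.976), 0.986 between CT010467.1 and Rn7sk (rho 0.905) and 0.962 between CT010467.1 and Rmrp (rho 0.786). Without E5642 and E5568 r over the other 6 mice was 0.963 for Lars2, 0.877 for Rn7sk and 0.641 for Rmrp, so the relation to Lars2 and Rn7sk was also seen among the lower mice. The points share their libraries, and these are descriptions. Among the tested genes, those most like CT010467.1 were Lars2, Gm23935 (r = 0.994), an annotated miRNA, and Gm15564 (r = 0.991). The genes most like Lars2 were CT010467.1, Gm15564 and Gm23935, and those most like Rn7sk were Gm15564 (r = 0.992), CT010467.1 and Lars2. For Rmrp they were Gm24601 (r = 0.985) and n-R5-8s1, both annotated as rRNA, and Rny3, a Y RNA of the Ro ribonucleoprotein. Rpph1, with 25 counts in all 8 mice, was most like Cited2, Igfn1 and Mustn1, and at that depth nothing was read from it.

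Of 19469 other tested genes, 15 (0.077%) had an r above 0.9 with CT010467.1. By type, 4 were annotated as miRNA, 3 as misc_RNA, 2 as rRNA, 1 as antisense and 5 as protein-coding, Lars2 among the last. The other 4 protein-coding genes, Gnat2, Fndc9, Dapk2 and Gm3558, were between 0.173 and 4.80 CPM, with narrow ranges across mice. The remaining 11 ran from at most 56.4 CPM in the lowest mouse to at least 21.4 CPM in the highest, and E5642 was the highest mouse for each of the 15.

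The annotated miRNA rows in this set are 57 or 123 bases long. Gm23935, on chromosome 16, was at 11.0 CPM in E5248, 722 CPM in E5568 and 1615 CPM in E5642. Gm24270, on chromosome 9, has the same 57 bases, and Gm24187, on chromosome 13, differs from them by 1 base. The sequences are shown because a read within them cannot be placed on Gm23935 or Gm24270 alone, and the base that differs is in capitals.
Gm23935: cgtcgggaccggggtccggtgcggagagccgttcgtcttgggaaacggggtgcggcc
Gm24187: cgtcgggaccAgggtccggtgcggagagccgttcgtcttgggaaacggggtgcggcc

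Gm24187 ran from 2.05 CPM in E1776 to 115 CPM in E5568 and 217 CPM in E5642, and Gm24270 from 0.248 CPM in E6732 to 13.6 and 21.4 CPM in the same pair. Mir6236, another annotated miRNA of 123 bases, was at 3.22 CPM in E5248, 180 CPM in E5568 and 448 CPM in E5642. With reads shared among near-identical copies, the split between Gm23935, Gm24187 and Gm24270 is uncertain, and the way multimapping reads were counted is not given in the sources used here.

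E5642 and E5568 did not differ by the same factor for every feature. The share of counts in E5642 over that in E5568 was 2.37 (95% interval 2.36 to 2.37) for CT010467.1 and 2.38 (2.36 to 2.41) for Lars2. It was 3.33 (3.08 to 3.61) for Rn7sk, 3.14 (2.49 to 3.97) for Rmrp and 10.2 (2.45 to 91.0) for Rpph1. The interval of Rn7sk lay above those of CT010467.1 and Lars2, while that of Rmrp overlapped that of Rn7sk and the interval of Rpph1 was too wide to place it.

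Other rows of the same pattern fell on both sides of these values. Gm23935, Gm24187 and Gm24270 had ratios of 2.24, 1.88 and 1.58. The Y RNAs Rny1 and Rny3 had ratios of 10.3 (9.20 to 11.6) and 8.14 (7.32 to 9.06), and Gm24601, an rRNA row that aligns to the 5.8S row n-R5-8s1 at 78.3% identity over 129 bases, had 9.06 (7.79 to 10.6). The 5.8S row itself had 4.09 (3.73 to 4.48). E5642 thus exceeded E5568 by far more for the Y RNAs than for CT010467.1. These are ratios of 2 libraries with counting intervals, with no replicate behind them.

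**Figure D3:**
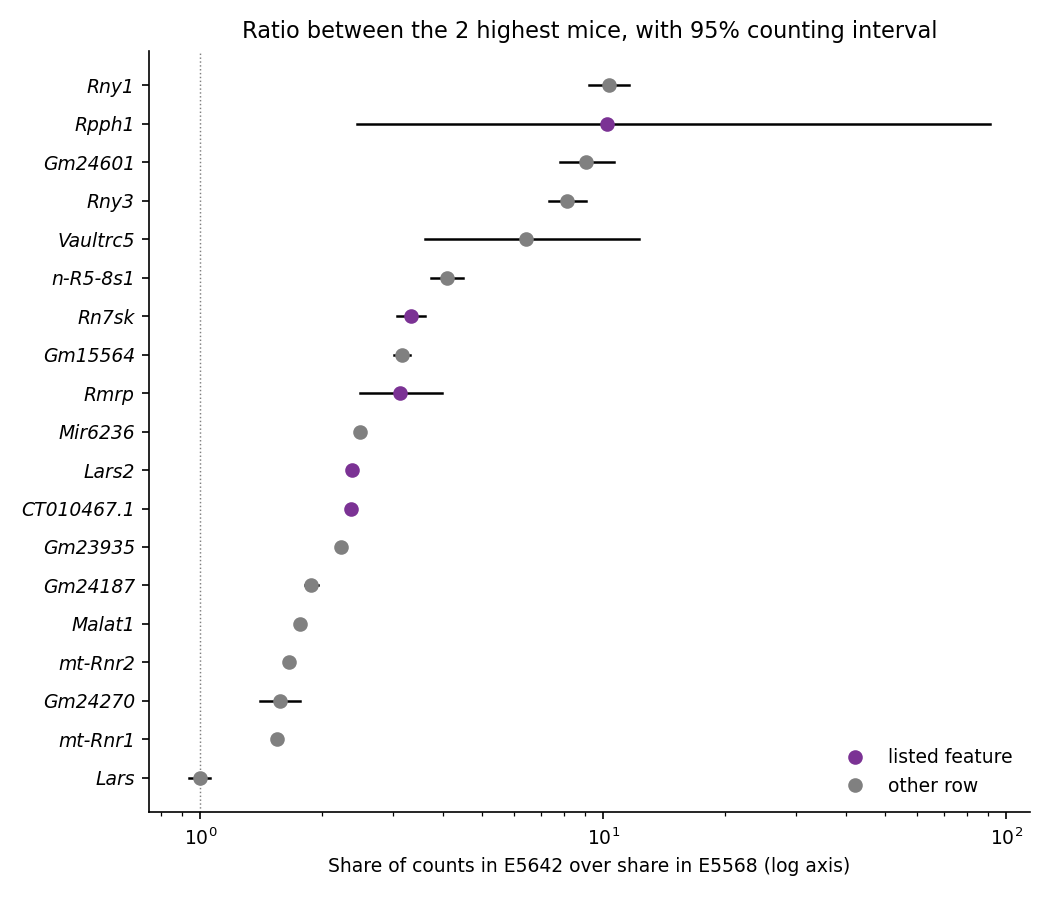
Share of counts in E5642 over the share in E5568 (log axis) for the listed features and other rows, with 95% counting intervals as bars. CT010467.1 (2.37) and Lars2 (2.38) coincide, Rn7sk (3.33) and Rmrp (3.14) lie higher, Rny1 (10.3) is the highest of the rows drawn and Lars (0.997) is at 1.

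Whether a structural RNA row followed CT010467.1 differed between rows. Of 3831 rows annotated as rRNA, ribozyme, snRNA, snoRNA, scaRNA or misc_RNA or listed as nuclear rRNA-like, the listed features left out, 2538 had no count in any mouse and 69 were tested. Of the 45 tested rows that lie inside another gene on the same strand, 0 had an r above 0.9 with CT010467.1 and the median r was -0.07. Of the 23 that do not, 4 had an r above 0.9 (n-R5-8s1, Gm24601, Rny1 and Rny3) and the median r was -0.13. Gm15564, an antisense gene, was not sorted this way. Most of the tested structural RNA rows, snoRNA rows among them, therefore did not follow CT010467.1. The 34 tested snoRNA rows had a median r of -0.03 with it. Rows near 0 in most mice failed the filter and are left out of this, Gm22513 (664 counts in E5642, 138 in E5568) among them. Summed over all their rows, the snoRNA, snRNA, scaRNA and misc_RNA classes had r values of 0.68, 0.77, 0.71 and 0.87 with CT010467.1. Each of these classes was highest in E5642.

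Rny1, which is 112 bases long, was at 1.62 CPM in E1776, 1.37 in E5231, 1.44 in E5248 and 8.49 in E5568 and among the controls at 3.83 CPM in E5386, 87.6 in E5642, 1.03 in E6578 and 3.27 in E6732. E5642 stood apart and the genotypes overlapped. The 5.8S row n-R5-8s1 was at 63.9 CPM in E5642, 15.6 CPM in E5568 and 3.50 CPM in E5386, and at or below 1.04 CPM in every other mouse. The small nuclear RNA row Gm22513 showed the same order at the top, at 19.6, 3.57 and 0.738 CPM. The RNA of the vault particle, Vaultrc5, was at 2.33 CPM in E5642, 0.362 CPM in E5568 and at or below 0.164 CPM elsewhere, whereas telomerase RNA, Terc, was below the floor of 3 counts in all 8 mice.

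The genotype comparison over all genes used edgeR's exact test after TMM scaling, which trims extreme genes, with fold changes given as controls over mice with the deletion. It called 14 of 19470 genes (0.0719%), 12 of them higher in controls, and edgeR's quasi-likelihood test called 1 (0.00514%). Of the 3 tested features 0 were called by either. Their log2 fold changes were 1.28 (SE 1.44) for CT010467.1, 1.28 (SE 1.38) for Lars2 and 1.78 (SE 1.45) for Rn7sk, with SEs close to or above the values themselves. Since the features were selected on these libraries, nothing is read from that count.

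The sign of these fold changes depended on E5642, as did that of the difference in summed share, which was 0.650 percentage points higher in controls with all mice and -0.347 without E5642. Without it they were -1.76 for CT010467.1, -1.60 for Lars2 and -1.22 for Rn7sk, and without E5568 they were 4.04, 3.85 and 4.60. Leaving out any other mouse kept each of the 3 above 0. With both E5642 and E5568 left out, an alternative added after the values were seen, they were 0.99 (SE 0.33), 0.96 (SE 0.26) and 1.60 (SE 0.67), again as a description. Among the mice then left, the genotypes still overlapped for CT010467.1 and Rn7sk. E5231, at 1030 and 1.42 CPM, was above the control E6732, at 1023 and 1.31 CPM. For Lars2 they did not overlap, with E5231 at 87.8 CPM and E6732 at 89.2 CPM.

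**Figure D4:**
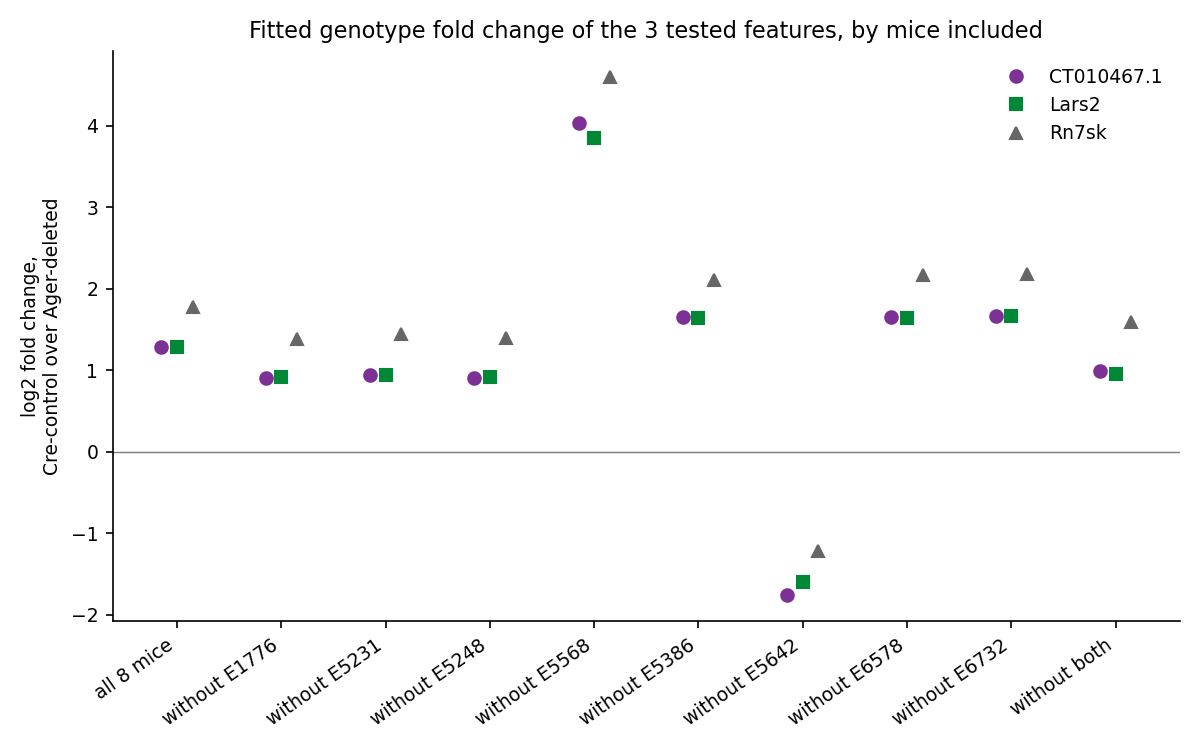
Fitted log2 fold change, controls over Ager-deleted mice, of CT010467.1, Lars2 and Rn7sk with all 8 mice, with each mouse left out and with E5568 and E5642 both left out. The 3 values drop below 0 (-1.76, -1.60 and -1.22) without E5642 and rise to 4.04, 3.85 and 4.60 without E5568.

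Most genes that make or bind these RNAs, from lists written by hand, moved little between genotypes, with Polr3e, given below, as an exception. All 11 listed protein subunits of RNase P and RNase MRP were tested and 0 passed the exact test, with 4 of 11 above 0 and a median log2 fold change of -0.01. Pop7 had the smallest p of them, with 12.0 ± 1.66 CPM (SD, n = 4) with the deletion and 10.5 ± 0.907 CPM (SD, n = 4) in controls (adjusted p = 1.00, edgeR exact test). Pop5 had the next, at 29.4 ± 2.17 and 26.7 ± 1.60 CPM (SD, n = 4 each). Of the 11 genes of the 7SK and P-TEFb complexes, which include the kinase Cdk9 and its 7SK-bound inhibitor Hexim1, 0 passed, and the lowest p-values were those of the cyclin Ccnt1, with a log2 fold change of 0.12 (SE 0.08), and the 7SK capping enzyme Mepce, with -0.10 (SE 0.07).

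Among 30 genes of the polymerase III machinery 0 passed. Polr3e, a subunit of the polymerase, had the smallest p, at 78.7 ± 29.0 CPM (SD, n = 4) with the deletion and 47.1 ± 4.25 CPM (SD, n = 4) in controls (log2 fold change -0.72, SE 0.21, adjusted p = 0.251 by edgeR's exact test). Polr3g followed with a log2 fold change of 0.27 (SE 0.10). Of 16 polymerase I genes 0 passed, with Polr1b at -0.18 (SE 0.07) and Taf1d at 0.19 (SE 0.08), and of 20 rRNA processing genes 0 passed, with the nucleolar proteins Npm1 at 0.15 (SE 0.06) and Ncl at 0.14 (SE 0.06). Together with the mitochondrial synthetases, 0 of 109 such genes were called by the exact test, the quasi-likelihood test or DESeq2 and 1 had an unadjusted p under 0.05. The summed level of each list stayed within a narrow band in all 8 mice, E5642 included, for example 1024 to 1161 CPM for the polymerase III list and 149 to 170 CPM for the RNase P and MRP proteins. Any bearing of these mRNA levels on the amounts of the structural RNAs was not tested.

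Of the 69 tested structural RNA rows outside the listed features, 0 passed the exact test, the quasi-likelihood test or DESeq2 and 3 (4.35%) had an unadjusted p under 0.05, a share close to that over all genes tested, 829 of 19470 (4.26%). The 3 were Rny1 (log2 fold change 2.95, SE 1.28), Rny3 (2.85, SE 1.38) and Gm22009, an annotated scaRNA, which was at 1.31 ± 0.557 CPM (SD, n = 4) with the deletion and 3.05 ± 0.935 CPM (SD, n = 4) in controls (1.24, SE 0.32, adjusted p = 0.103 by edgeR's exact test). Gm22009 did not share the order of the listed features, since it was highest in E6578, at 3.85 CPM. The exact test called it without E5568 and also without E6732, and with common and tagwise dispersions. In the remaining lists the lowest p-values belonged, for rRNA rows, to Gm24601 (3.08, SE 1.66) and Gm23257 (0.47, SE 0.31), for snRNA rows to Gm25047 (0.60, SE 0.43) and Gm23205 (0.35, SE 0.33), and for snoRNA rows to Gm25588 (-0.73, SE 0.43) and Snord7 (-0.71, SE 0.40). The next scaRNA row was Gm26413 (-0.19, SE 0.28). None of the 19 other ribozyme rows was tested, and the median log2 fold change was 0.18 over 11 snRNA rows, 0.11 over 34 snoRNA rows and 0.09 over 12 misc_RNA rows.

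As background, replication-dependent histone mRNAs typically end in a stem-loop in place of a poly(A) tail. The 66 histone rows summed to between 67.1 and 90.9 CPM, with 76.3 CPM in E5568 and 87.0 CPM in E5642. Neither of the mice highest for CT010467.1 was therefore highest here, where E5231 was. None of 15 tested histone genes passed the exact test, and 1 had an unadjusted p under 0.05. H1f4 had the smallest p, at 1.22 ± 0.242 and 0.849 ± 0.130 CPM (SD, n = 4 each) in Ager-deleted mice and controls, followed by H2bc4 at 30.0 ± 3.23 and 33.3 ± 0.802 CPM (SD, n = 4 each). H2bc4 alone thus held much of the class, whose means were 78.6 and 83.9 CPM. Whether the reads on these rows came from transcripts without a tail was not tested.

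Library composition was compared by RNA class, with the listed features left out of the classes but kept in the total of counts. Nuclear protein-coding rows held 88.8% of counts in E5642, between 92.2% and 94.9% in the other 7 mice, and 92.2% in E5568. The listed features took 4.13% of that total in E5642 and 1.75% in E5568. The lower protein-coding share of E5642 therefore in large part restates their share. The class of annotated miRNA rows, which includes Gm23935, was at 2350 CPM in E5642 and 1077 CPM in E5568, and between 75.7 and 140 CPM in the other 6. In the first 2 mice most of it lay on Gm23935, Mir6236 and Gm24187. These rows were at 1615, 448 and 217 CPM in E5642 and at 722, 180 and 115 CPM in E5568. The rRNA class was at 115 CPM in E5642, 23.4 CPM in E5568 and between 3.48 and 8.61 CPM in the others. Here n-R5-8s1 and Gm24601 held most of it, at 63.9 and 44.3 CPM in E5642 and 15.6 and 4.89 CPM in E5568. In both classes the 3 highest mice were those of CT010467.1, in the same order, while the lower mice were ordered differently. In the misc_RNA class E5642 was at 189 CPM and E5568 at 33.4 CPM, with the others between 15.9 and 24.3 CPM. Rny1 and Rny3 held most of that class in E5642, at 87.6 and 84.0 CPM. The snRNA class was at 67.6 CPM in E5642, and here E5568, at 22.8 CPM, was close to the other mice. The snoRNA class was at 59.6 CPM in E5642 and 36.2 CPM in E5568, within the range of 29.6 to 39.6 CPM of the other 6.

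The mitochondrially encoded classes were ordered differently. Mitochondrial rRNA, which carries a short poly(A) tail, was at 8373 CPM in E5642 and 5209 CPM in E5568, with the other 6 mice from 3559 to 5310 CPM, so only E5642 stood apart. Mitochondrial mRNA was between 22970 and 35276 CPM in Ager-deleted mice and between 35138 and 41370 CPM in controls. Mitochondrial tRNA was at 57.2 CPM in E1776, 60.9 in E5231, 76.5 in E5248 and 69.5 in E5568 and among the controls at 114 CPM in E5386, 104 in E5642, 92.3 in E6578 and 103 in E6732, so that the genotypes did not overlap.

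Across the 13 classes, 0 differed between genotypes after adjustment (exact two-sided permutation test over the 70 assignments, Benjamini-Hochberg over 13 classes). Mitochondrial tRNA had the smallest p that the design allows (exact permutation p = 0.0286, adjusted p = 0.371), with a log2 ratio of 0.65 for controls over Ager-deleted mice. Mitochondrial mRNA followed (0.38, exact permutation p = 0.0571, adjusted p = 0.371). For the classes that were high in E5642 and E5568, the log2 ratios were 0.49 for miRNA (exact permutation p = 0.543) and 0.91 for rRNA (exact permutation p = 0.514), smaller than the spread between mice. With 4 mice per genotype no class could pass after this adjustment unless several reached that smallest p.

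**Figure D5:**
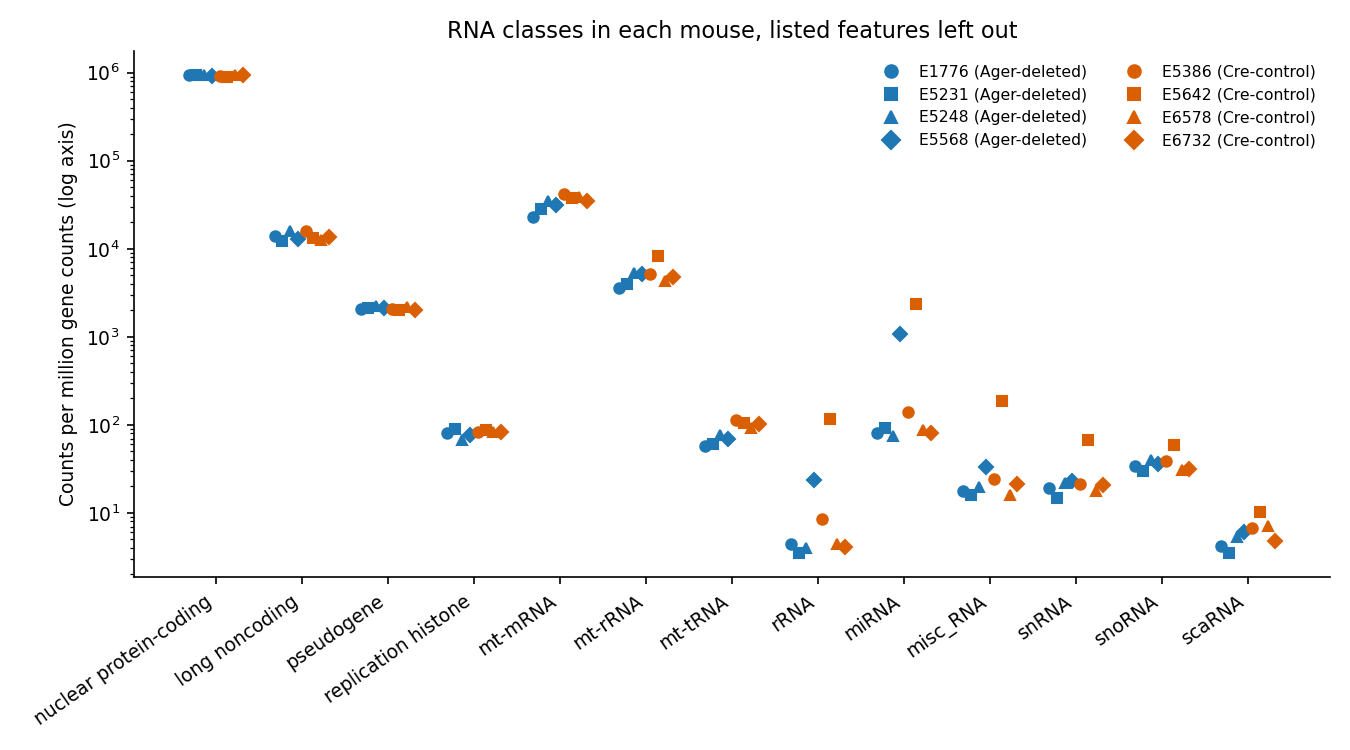
CPM (log axis) of 13 RNA classes without the listed features, 1 point per mouse, blue for Ager-deleted mice and orange for Cre-expressing controls. E5642 and E5568 stand above the rest in the miRNA class (2350 and 1077 CPM) and the rRNA class (115 and 23.4 CPM), and the genotypes separate for mitochondrial tRNA.

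Removing the listed features moved the TMM factor of E5642, while effective library sizes changed little in every mouse. With the features in the table the TMM factor of E5642 was 0.955, the lowest of the 8, and without them it was 0.985. On their removal the effective library size changed by between -0.145%, in E5248, and -1.69%, in E1776, so E5642, at -1.09%, did not change the most. The exact test called 19 of 19510 genes without the features, and all 14 of the genes called with them were among the 19. The 5 gained were Acta1, Actn3, Myom2 and Neb, which encode proteins of the muscle sarcomere, and the mitochondrial tRNA gene mt-Tt. Each moved from an adjusted p of 0.0503 to 0.0486 by edgeR's exact test, so the gain is a step across the threshold with nearly the same fold change. Acta1 had a log2 fold change of 5.60 before and after, and was at 241 and 360 CPM in E5386 and E5642 and at or below 5.93 CPM in every other mouse.

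Markers of other tissues moved with the listed features only in part. The 15 skeletal muscle genes of a hand-written list summed to between 73.5 and 101 CPM in Ager-deleted mice and between 77.7 and 1593 CPM in controls. The high mice were E5642, at 1593 CPM, and E5386, at 1115 CPM, while E5568 was at 101 CPM. Of the 14 tested, Ckm, Myh4 and Atp2a1 passed the exact test, and 0 passed the quasi-likelihood test. Of the 15 markers, 1 was at 0, in E1776. The 10 liver genes summed to 725 CPM in E6732 and to at most 2.82 CPM in the other mice, with Alb and Ttr the lowest in p. E6732 was not among the mice high for CT010467.1. The 6 neuronal genes summed to between 2009 and 2778 CPM, the 6 astrocyte genes to between 11657 and 16504 CPM and the 6 microglial genes to between 775 and 1385 CPM, so markers of each of these cell types were present in every library. Erythroid genes summed to between 74.3 and 427 CPM, Schwann cell genes to between 211 and 1374 CPM, adipocyte genes to between 40.9 and 193.5 CPM and motor neuron genes to between 59.9 and 110 CPM. The part of muscle or liver RNA in the levels of the listed features was not tested.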

How the data were processed

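The authors trimmed reads, aligned pairs to mm10 with STAR 2.7.3a, counted pairs on GENCODE M25 genes with featureCounts (Subread 1.6.3), and deposited raw counts per gene for 8 mice, along with a table of log2 values, which the authors deposited as TMM-normalized log2 CPM. The strand and multimapping settings are not given in the sources used here. Column names gave the mouse IDs, and no column was left over. The log2 table could be recomputed from the counts within 4.78e-06 and was not used further.

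Levels are counts divided by the mouse's total counts on genes. Genes passing filterByExpr (minimum 10 counts) were tested with edgeR 4.0.16 (R 4.3.3): exactTest, the test that the methods of the study name, with dispersions from estimateDisp without a design matrix, a step chosen here, with glmQLFit and glmQLFTest for standard errors and as an alternative, and Benjamini-Hochberg adjustment at 0.05. DESeq2 1.42.0, other scalings and filters and each mouse left out were alternatives. RNA class shares were compared as log2 shares by exact permutation. The tests were tried on simulated data. Replicates are separate mice. Positions, gene types and sequences are from GENCODE M21 on GRCm38, matched by symbol for 53292 of 55291 rows; the authors' M25 is a later release. Transcripts were compared with BLAST 2.17.0.

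The features and gene lists were chosen with earlier results of these data known. Genes named are the features, genes overlapping them, the rows with the largest mean share, of which some are not reported here, the 3 tested genes most correlated with each feature, genes past the threshold in a list or otherwise the 2 with the smallest p, and genes whose call changed on removing the features. Other genes were chosen after their values were seen.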

Additional observations from a re-analysis of the deposited data

Results flagged for a closer look

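In 38 groups of 4 mice, for the 5 features, their sum and 13 RNA classes in each genotype, the gap between the highest or lowest mouse and its neighbor was divided by the range of the group. For the features and their sum, which were selected on these counts, the gaps are a description, with no critical value applied. For the classes, the gap passed the 95% critical value for 4 samples 6 times, always with E5568 or E5642 as the highest mouse. Chance gives about 1 in 20 groups, but the classes share libraries and are not independent. The miRNA, rRNA and misc_RNA flags largely restate the few rows, given above, that held most of those classes in the flagged mouse.

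For E5568 among the Ager-deleted mice the gap was 0.964 of the range for CT010467.1 (16034 CPM, next mouse 1030 CPM), 0.977 for Lars2, 0.963 for Rmrp, 1.00 for Rpph1 and 0.957 for Rn7sk. For the sum of the 5 features it was 0.965. The value for Rpph1 rests on 2 counts in E5568 against 0 in the other 3 mice. Among the RNA classes without the features, the gap was 0.950 for rRNA and 0.984 for annotated miRNA rows.

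For E5642 among the controls it was 0.978 for CT010467.1 (37931 CPM, next mouse 1842 CPM), 0.972 for Lars2, 0.972 for Rmrp, 0.906 for Rpph1 and 0.939 for Rn7sk. The sum of the 5 features gave 0.977. Among the classes it was 0.960 for rRNA, 0.974 for annotated miRNA rows, 0.953 for misc_RNA and 0.926 for snRNA. The misc_RNA and snRNA classes were flagged in E5642 and not in E5568, a difference that was not tested. What sets E5568 and E5642 apart was not tested, and the labels give no batch.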

How the results depend on the processing

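No paired analysis was possible because the replicate numbers follow accession order and pair no mice. The exact test called 14 genes. It called 78 with common and tagwise dispersions and 9 with a minimum of 30 counts, DESeq2 called 25, and the quasi-likelihood test called 1, also with the log2 share of CT010467.1 as a covariate. Without E5568 and E5642 it called 5, of which 2 were among the 14. The covariate and the removal of both mice were added after seeing the data. With each mouse left out the count was between 3 (without E5231) and 98 (without E6578), with 8 without E5568 and 8 without E5642. The other scalings and filters stayed within 1.5 times the count. Structural RNA rows outside the features went from 0 to 1 with common and tagwise dispersions and to between 0 and 1 with a mouse left out, the row being Gm22009, and partner genes from 0 to 1 (Polr3e) with common and tagwise dispersions.

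The difference in the features' share, 0.650 percentage points higher in controls, has a pooled SD of 1.53 points, which E5568 and E5642 widen, so a move of less than 1 SD says little. It was 0.0771 by medians, and ran from -0.347 (without E5642) to 1.07 (without E5568). No class passed under the alternatives with all 8 mice. With a mouse left out the smallest p is 0.0571, so none could pass. With a mouse left out, some log2 ratios changed sign: long noncoding ran from -0.057 (without E5386) to 0.083, and, lowest without E5642, rRNA from -0.194 to 1.55, miRNA from -0.655 to 1.41, misc_RNA from -0.020 to 1.16 and snoRNA from -0.053 to 0.269, with snoRNA at -0.033 without both mice. The cause was not tested. Depth limits Rpph1 in every mouse other than E5642, and Rmrp in every mouse other than E5642, E5568 and E5386.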
